A study of Arabidopsis thaliana with 51 samples.

Results

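The 346 sites described here are asymmetric (CHH) cytosines, where H stands for A, C or T, in an interval of 1400 bp, the upstream portion, by coordinate, of a stretch methylated in flowers of plants with AGe constructs. They were selected on coordinates, as the CHH entries at coordinates 10384302 to 10385701 of the deposited bisulfite table, which uses TAIR10 coordinates. The table lists 354 such entries among its 4378 CHH entries and 5709 entries in all. Of the 354, 6 share a coordinate with a CHG entry and 2 could not be placed with certainty in every group of columns, which left 346 sites, 159 on the plus and 187 on the minus strand. The interval itself was chosen by the measured levels of a single library, Col AGp//AGe sMf, from a run of 100-bp windows mostly at 10% or more. That library entered no test. In it the CHH level was 15.0% in the first window inside the interval, against 3.40% in the window before it. At the other end it was 1.74% in the last window inside, against 19.5% in the next window, which opens the following 1400 bp, the second portion of the stretch.

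Plants methylate cytosines in 3 sequence contexts with different enzymes. CpG methylation is copied by MET1 and CHG methylation by CMT3, both acting on symmetric sites, whereas CHH sites have no partner on the opposite strand and must be methylated afresh, by DRM2 guided by small interfering RNAs (RNA-directed DNA methylation, RdDM) or by CMT2. The table does not name its chromosome. By the construct names it was assigned to AG (AGAMOUS, AT4G18960, chromosome 4), a MADS-box gene that specifies stamens and carpels and is controlled in part from its large intron. Whether the interval lies in an exon, an intron or outside the gene was not determined.

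Bisulfite sequencing was done on DNA of young flowers of Arabidopsis thaliana in 51 libraries of 36 groups, in sets labelled A, B and C with 28, 13 and 10 libraries. Each library with a construct pooled flowers of 5 to 10 transformed lines of the same phenotype. The same number of lines is given for the construct-free libraries. In set A, AGe was carried by Col plants with rMf flowers (2 libraries), by M317 plants with sMf (2) and rMf (3) flowers, and by M318 plants with sMf (3) and rMf (3) flowers. Col plants of set A also carried AGp//AGe with sMf or rMf flowers, UF2//AGe, UF4//AGe or ARE//AGe with Wt flowers (1 library each), or AGp with Sterile flowers (2). Construct-free plants with Wt flowers were Col (2), M317 (3) and M318 (3). In set B, Met1-1 and ddm1-1 plants each carried ARE//AGe with sMf or rMf flowers or Ctr//AGe with rMf flowers, Col plants carried Ctr//AGe with rMf or Wt flowers or AGe with rMf flowers, and Met1-1, ddm1-1 (1 each) and Col (2) plants with Wt flowers had no construct. In set C, suvh1-2 plants carried ARE//AGe with sMf flowers and hdp1-1 and hdp2-1 plants carried it with sMf or rMf flowers, Col carried it with Wt flowers, and suvh1-2, hdp1-1, hdp2-1 and Col plants with Wt flowers had no construct. Groups of sets B and C had 1 library, except Col Wt of set B. DDM1 is a nucleosome remodeler that lets methyltransferases reach heterochromatin, SUVH1 a reader of methylated DNA that favours transcription, with HDP1 and HDP2 both part of a histone acetyltransferase complex that helps recruit a DNA demethylase. ARE stands for an anti-RdDM element in the title of the series, and the sources used here do not spell out the other construct and flower labels. UF2//AGe and UF4//AGe are sMf in the title and rMf in the phenotype field, so their phenotype is not stated here.

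Values are methylation levels in whole percent, without read counts, so the depth behind them is unknown and a site listed at 0 may be unmethylated or uncovered. The table does not separate construct copies from the endogenous copy, and a level of a pooled library can come from a share of its plants or from a share of the DNA copies in each. Rows of 4 of the 5 groups of columns (column blocks) had slipped against the coordinates and were realigned by strand. All set A replicates labelled A are in column block 1, and those labelled B or C are in column block 2. One library stands apart. Replicate A of M318 AGe sMf (dashed in the profile plot) had a mean CHH level of 0.451%, with 13 of 346 sites above 0, where the other 12 AGe libraries of set A had 280 to 346 sites above 0. Its CHG level was 0 and its CpG level 0.333%. It carries an AGe label with levels like those of Wt libraries, and whether the label is right cannot be told from the files. The comparisons that include it are given with and without it.

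**Figure D1:**
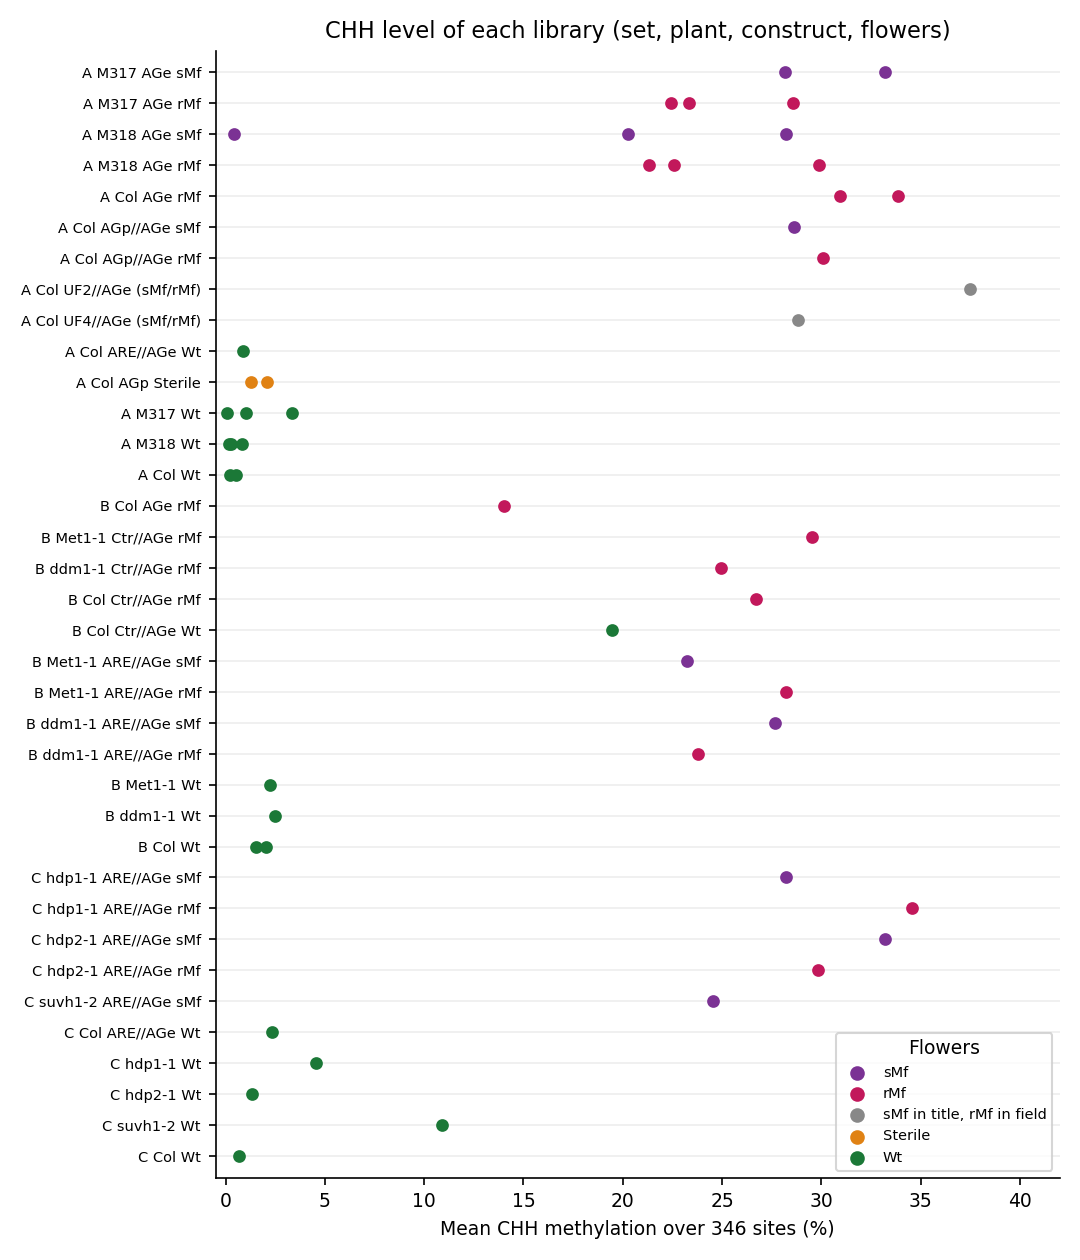
Mean CHH methylation over the 346 sites in percent (horizontal axis) for each of the 51 libraries, 1 point per library, in rows by set, plant, construct and flowers, coloured by flower phenotype. Libraries coloured as sMf or rMf lie between 14.02% and 34.6%, apart from replicate A of M318 AGe sMf at 0.451%. UF2//AGe and UF4//AGe, sMf in the title and rMf in the phenotype field, have their own colour and lie at 37.5% and 28.8%. Construct-free Wt libraries of set A lie between 0.0809% and 3.36%.

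All 3 kinds of AGe plants in set A were methylated at these sites and their construct-free counterparts were almost free of methylation. Col AGe rMf had 33.8% and 30.9% in replicates A and B, against 0.520% and 0.234% in Col Wt replicates A and C. M317 AGe sMf had 28.2% and 33.2%, and M317 AGe rMf 22.5%, 23.3% and 28.6%, against 3.36%, 1.05% and 0.0809% in M317 Wt. M318 AGe rMf had 22.6%, 29.9% and 21.3%, and M318 AGe sMf 0.451%, 28.2% and 20.3%, against 0.830%, 0.278% and 0.179% in M318 Wt. In each of these contrasts the libraries of the 2 groups did not overlap, except in M318 AGe sMf, whose replicate A lay within the range of M318 Wt.

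As the mean of the differences within Col, M317 and M318, AGe libraries exceeded Wt libraries by 25.9 percentage points. With labels permuted within genotypes, the two-sided exact permutation p was 7.09e-05 (0.000709 after Benjamini-Hochberg adjustment over 10 comparisons). Pooled over genotypes, the levels were 24.9% ± 8.62 (SD, n = 13) in AGe and 0.816% ± 1.08 (n = 8) in Wt libraries. The smallest p-value this design allows is 3.54e-05. The difference was 27.2 without M318 AGe sMf replicate A, 22.0 within column block 1 and 27.7 within column block 2. Within column block 1 alone the exact permutation p was 0.167. If every 0 is taken as missing, the difference falls to 11.7 (exact permutation p = 0.00103), because the few sites then left in the Wt libraries are those above 0.

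The separate contrasts are too small to pass 0.05. M317 AGe sMf exceeded M317 Wt by 29.2 percentage points and M317 AGe rMf did so by 23.3 (exact permutation p = 0.1 for both, which is the smallest attainable). M318 AGe rMf exceeded M318 Wt by 24.2 (exact permutation p = 0.1, the smallest possible). M318 AGe sMf exceeded M318 Wt by 15.9 (exact permutation p = 0.2), or by 23.8 without its replicate A. Col AGe rMf exceeded Col Wt by 32.01 (exact permutation p = 0.333, the smallest possible for 2 against 2). Adjusted over the 10 comparisons these p-values were 0.25 to 0.417. With 0 taken as missing, these 5 differences ranged from 6.09 to 17.2.

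Single sites were tested with limma in 1 fit over 2342 cytosines of the table, and all 346 sites entered it. In Col AGe rMf against Col Wt 302 of 346 sites rose and 0 fell, where 28.6% of all cytosines tested rose and 0.598% fell. It was 188 when AGe rMf replicate A was left out and 191 when Wt replicate C was left out. In M317 AGe sMf 271 rose (28% of all tested) and 0 fell (0.47%), with 168 without sMf replicate B, and in M317 AGe rMf 233 rose (24.4%) and 0 fell (0.512%). In M318 AGe rMf 246 rose (26.2%) and 0 fell (0.64%). In M318 AGe sMf 117 rose (14.2%) and 0 fell (0.384%). Leaving out sMf replicate A brought that last count to 292. Leaving out sMf replicate B or C brought it to 4, Wt replicate A to 11 and Wt replicate B or C to 5.

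Most of the sites with the widest differences lay within 3 of the windows, starting at 10384502, 10384702 and 10384902. The minus-strand site at 10384566 was at 72% and 75% in Col AGe rMf, against 0 in both Col Wt libraries (limma log2 odds difference 8.10, SE 1.54, adjusted p = 0.00279). In M317 AGe rMf it was at 65%, 65% and 73%, against 0 in all 3 M317 Wt libraries. Its neighbours at 10384564 and 10384572, also on the minus strand, were at 58% to 66% in M317 AGe rMf and at 0 in M317 Wt (limma adjusted p = 0.000496 for each). The minus-strand site at 10384767 was at 81% and 66% in Col AGe rMf, against 0 in Col Wt. In M318 AGe rMf it was at 66%, 56% and 62%, against 0 in M318 Wt (limma adjusted p = 0.000710). The plus-strand site at 10384918 was at 79% and 60% in M317 AGe sMf, against 0 in M317 Wt (limma adjusted p = 0.001015). The plus-strand site at 10384733 was at 17%, 49% and 52% in M318 AGe sMf, against 0 in M318 Wt (limma adjusted p = 0.00163), and is among the 13 sites at which replicate A was above 0. The plus-strand site at 10385299 lay apart from the others, at 9%, 61% and 52% in M318 AGe sMf, against 6%, 0 and 0 in M318 Wt (limma adjusted p = 0.03215). A log2 odds difference against libraries at 0 depends on the offset of 0.01 in the transform.

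Levels were not even along the interval. Over the 12 AGe libraries other than M318 AGe sMf replicate A, the 100-bp window means were 21.5% ± 12.9 (SD, n = 12) in the first window and 25.1% ± 10.3 in the second. They lay between 35.1% and 46.3% in the 6 windows from 10384502 to 10385101. The highest was 46.3% ± 13.1 from 10384902 to 10385001, followed by 45.3% ± 8.22 from 10384502 to 10384601. Past 10385101 they were 27.6%, 22.5% and 17.3% in successive windows. In the last 3 windows, from 10385402 to 10385701, they were 3.88% ± 2.16, 2.78% ± 1.54 and 3.10% ± 1.63, against 1.28%, 0.450% and 0.296% in the 8 Wt libraries. AGe and Wt libraries were not fully separated there. From 10385402 to 10385501, M317 Wt replicate B was at 8.14%, above the highest of the 12 AGe libraries, at 7.86%. These last 3 windows are called the trough below, since the second portion beyond them averaged 28.9% ± 8.79 (SD, n = 13).

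Of the 67 sites in the trough, limma called 32 higher in Col AGe rMf, 23 in M317 AGe sMf, 10 in M317 AGe rMf, 1 in M318 AGe sMf and 6 in M318 AGe rMf. Of the 279 sites before it, it called 270 in Col AGe rMf, 248 in M317 AGe sMf, 223 in M317 AGe rMf, 116 in M318 AGe sMf and 240 in M318 AGe rMf. Of all cytosines tested, 28.6%, 28%, 24.4%, 14.2% and 26.2% were called higher in these contrasts, in the same order. In the trough the 12 AGe libraries had mean levels between 0.597% (M318 AGe rMf replicate A) and 6.21% (M318 AGe rMf replicate B). M317 Wt replicate B, at 4.18%, and M318 Wt replicate C, at 0.925%, lay within that range, and the other Wt libraries of set A below it. Of the 58 sites with a mean level under 5% over the 13 AGe libraries, 56 lay there. The trough was set off by its low levels in these libraries, so few calls and low sites there follow from that choice.

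**Figure D2:**
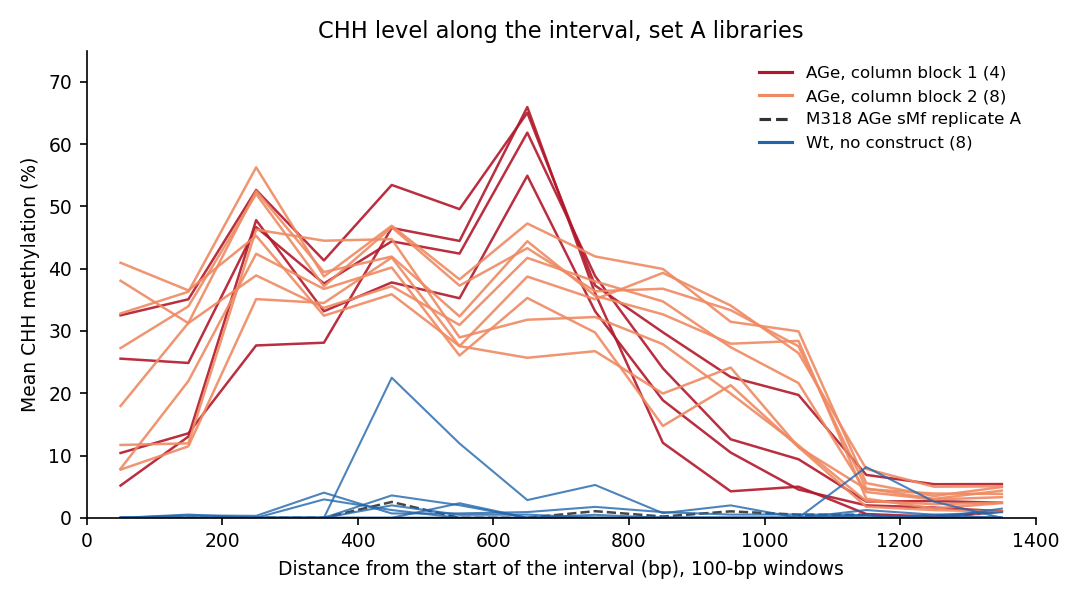
Mean CHH methylation in percent (vertical axis) in 100-bp windows against distance from the start of the interval in bp (horizontal axis), 1 line per library of set A, for 12 AGe libraries coloured by column block, M318 AGe sMf replicate A (dashed) and 8 construct-free Wt libraries. Relative to their mean, the 12 AGe libraries differ most in the first window, and all are under 8% in the last 3 windows, while a single Wt library, M317 Wt replicate A, reaches 22.5% in the fifth window.

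Relative to their mean, the AGe libraries varied least in 3 inner windows and most in the first. The coefficient of variation over the 12 libraries was 12.1%, 11.6% and 11.8% in the windows starting at 10384602, 10384702 and 10385002. It was 59.9% in the first window, where levels ran between 5.19% (M317 AGe rMf replicate A) and 41.0% (M318 AGe rMf replicate B), and 52.6% to 55.7% in the last 4 windows. The libraries with a low first window were not those of a single genotype or flower phenotype. M318 AGe rMf held replicates at 10.4%, 41.0% and 7.89%, and M318 AGe sMf replicates B and C at 38.1% and 7.74%.

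One window split by column block. From 10384902 to 10385001, the AGe libraries of column block 1 other than M318 AGe sMf replicate A were at 65.0% (Col AGe rMf), 65.96% (M318 AGe rMf), 61.9% (M317 AGe sMf) and 54.9% (M317 AGe rMf). The 8 AGe libraries of column block 2 ranged between 25.7% and 47.3% there, with no overlap. M318 AGe sMf replicate A, also of column block 1, was at 0. In the other 4 AGe libraries of column block 1 this window holds the peak of the profile, whereas in column block 2 the peak was elsewhere in 7 of 8 libraries. In M317 AGe sMf replicate B it lay from 10384502 to 10384601, at 56.3%. Column block and replicate letter cannot be told apart in set A. Across the 346 sites, Pearson's r between 2 AGe libraries had a median of 0.862 (0.66 to 0.95, 34 pairs) within a column block and of 0.74 (0.477 to 0.851, 32 pairs) between blocks. These are correlations over sites of shared sequence, given as a description. M318 AGe sMf replicate A had a median r of 0.108 with the other 12.

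Single sites had mean levels between 0.923% and 57.5% over the 13 AGe libraries, with a median of 25.9%. Without M318 AGe sMf replicate A the highest site, at 10384566, averaged 62.3%. The 10 highest lay in 4 windows, 4 of them from 10384502 to 10384601, 1 at 10384663, 2 at 10384767 and 10384778, and 3 from 10384902 to 10385001. Over the 13 libraries it had a lowest value of 0 (M318 AGe sMf replicate A), a median of 63% and a highest value of 75%. At 10384778 the median was 59% and at 10384960 it was 54%, with 75% and 80% as their highest values. The 10 sites were at 0 in all 8 Wt libraries except 10384778, which was at 50% in M317 Wt replicate A. The 5 lowest sites, at 10385582, 10385602, 10385472, 10385502 and 10385553, averaged 0.923% to 1.08% over the 13 AGe libraries, and all lay in the trough. In the same order, their means over the 8 Wt libraries were 0, 3.875%, 2.125%, 2.5% and 0. At 240 sites all 12 AGe libraries other than M318 AGe sMf replicate A were above 0.

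**Figure D3:**
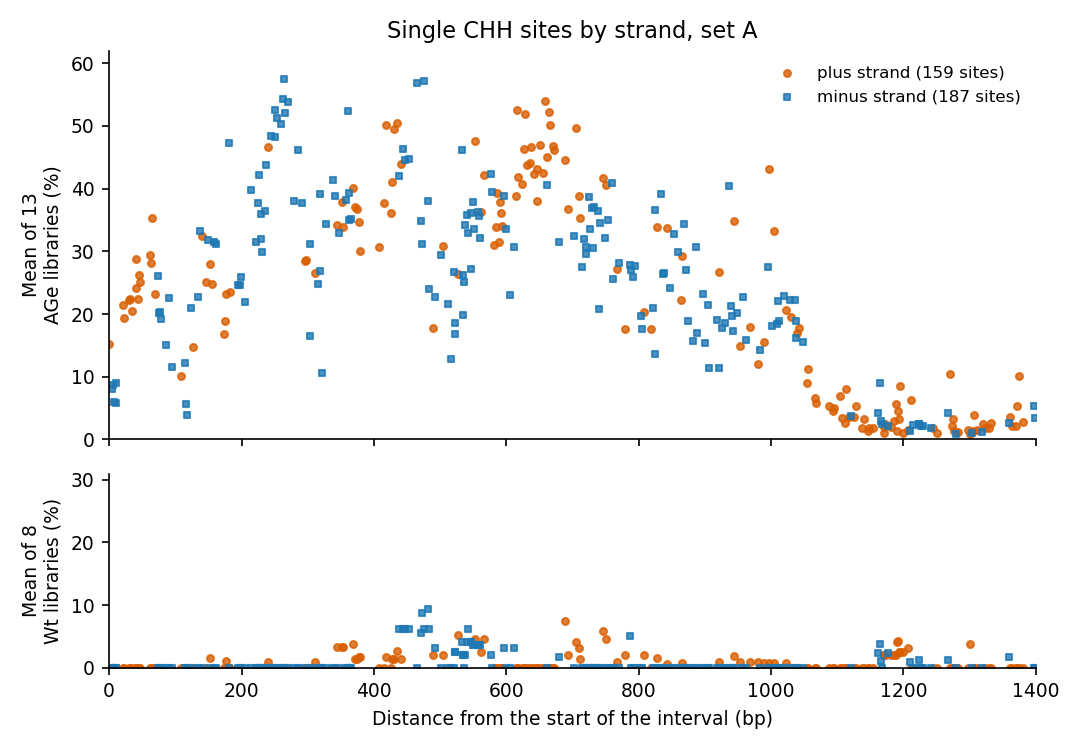
Mean CHH methylation of each of the 346 sites in percent (vertical axes) against distance from the start of the interval in bp (horizontal axis), as the mean of 13 AGe libraries (top) and of 8 Wt libraries (bottom) of set A, with plus-strand sites as circles and minus-strand sites as squares. AGe means reach 57.5%, both strands take part, and the sparse Wt values stay under 10%.

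Strands were compared within each AGe library of set A. Plus-strand sites averaged 22.99% ± 8.14 and minus-strand sites 26.5% ± 9.12 (SD, n = 13), and plus was the lower in 12 of 13 libraries (difference -3.45 percentage points, two-sided paired permutation p = 0.000488, adjusted 0.000814 over 5 comparisons). It was -3.79 without M318 AGe sMf replicate A. The strands are not spread alike over the interval, since 47 of the 67 sites of the trough are plus-strand sites. Compared within windows, plus-strand sites were the higher, by 1.54 percentage points, in 11 of 13 libraries (permutation p = 0.0486). Without the trough the plus strand was higher by 2.02 (permutation p = 0.0190). In the 13 construct libraries with sMf or rMf flowers of sets B and C the difference was -1.31 over all sites (permutation p = 0.0515). Within windows it was 2.96 there, positive in 13 of 13 (permutation p = 0.000244, the smallest possible). The sign depended on how position was treated. The within-window comparison was added after the data were seen.

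The base after the cytosine was read from neighbouring listed cytosines, and 60 sites were followed by C and 286 by A or T. This comparison was also added after the data were seen. Sites followed by C averaged 19.8% ± 7.21 and the others 25.9% ± 8.93 (SD, n = 13), and sites followed by C were lower in 13 of 13 AGe libraries of set A (difference -6.08 percentage points, paired permutation p = 0.000244, the smallest possible, adjusted 0.000814). The difference was -6.54 without M318 AGe sMf replicate A, -5.60 within windows and -1.75 with rows as deposited. In the construct libraries of sets B and C the levels were 20.0% ± 4.94 and 28.2% ± 5.28, a difference of -8.26, again negative in 13 of 13. All libraries share the same sites, so sets B and C are no independent set of sites. The difference held on both strands, at 16.3% against 23.9% on the plus and 21.5% against 27.8% on the minus strand, as means of sites in set A. Of the 58 sites with a mean of 40% or more, 2 were followed by C.

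**Figure D4:**
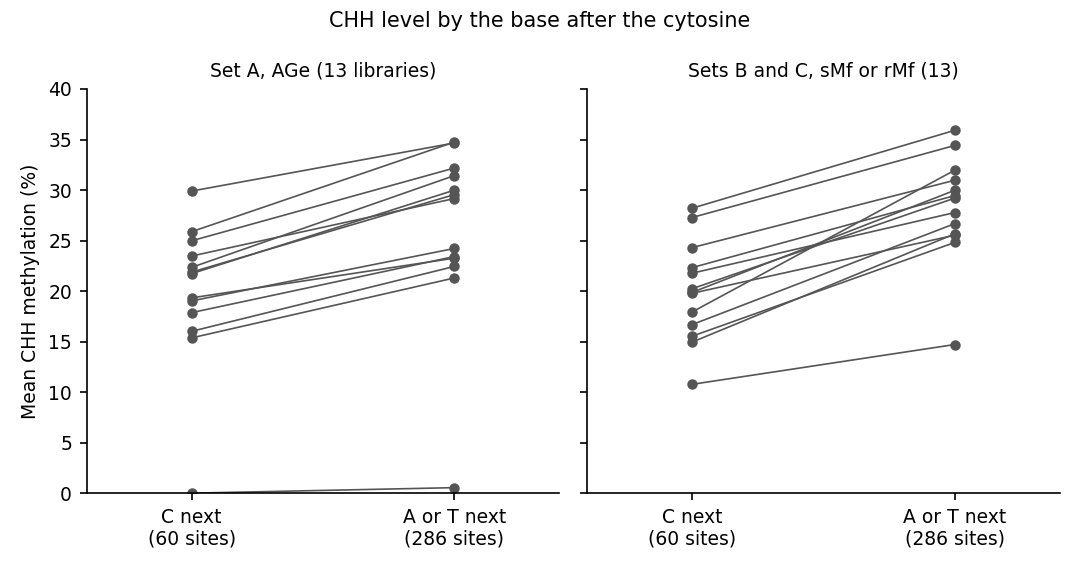
Mean CHH methylation in percent (vertical axis) of the 60 sites followed by C and the 286 sites followed by A or T (horizontal axis), with 1 line per library, for the 13 AGe libraries of set A (left) and 13 construct libraries with sMf or rMf flowers of sets B and C (right). Every line slopes upward to the sites followed by A or T, including M318 AGe sMf replicate A near 0.

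The CHH sites were set against the other contexts of the same interval, which holds 22 CHG and 18 CpG sites. CHH averaged 24.9% ± 8.62 and CHG 43.2% ± 14.2 over the 13 AGe libraries (SD, difference -18.3 percentage points, negative in 12 of 13, permutation p = 0.000488, adjusted 0.000814). Without M318 AGe sMf replicate A it was -19.9. With rows as deposited the difference was -3.84 (permutation p = 0.123). It was -13.5 in column block 1, whose rows had not slipped, and -21.35 in column block 2 after realignment. The cause was not tested. CHH exceeded CpG, at 9.01% ± 7.24, by 15.9 percentage points in 12 of 13 libraries (permutation p = 0.000732, adjusted 0.000916), and by 17.2 without M318 AGe sMf replicate A. CpG levels varied widely between libraries of similar CHH level. M318 AGe sMf replicate C had 23.2% CpG beside 20.3% CHH, and M318 AGe rMf replicate A had 2.11% CpG beside 22.6% CHH. Against the 305 CHH sites of the second portion, at 28.9% ± 8.79, the sites described here were lower (difference -4.08 percentage points, permutation p = 0.00903, adjusted 0.00903). The difference was -4.29 without M318 AGe sMf replicate A (permutation p = 0.0117). Without the trough the difference turned to 1.15 (permutation p = 0.423).

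No site was called between sMf and rMf flowers. M317 AGe sMf averaged 30.7% ± 3.56 (SD, n = 2) and M317 AGe rMf 24.8% ± 3.30 (n = 3), with 28.2% the lowest sMf and 28.6% the highest rMf value (difference 5.91, exact permutation p = 0.3). limma called 0 sites, where 0.213% of all cytosines tested were called higher and 0 lower. An unadjusted limma p under 0.05 was found at 9 of the 346 sites, and at 121 of all 2342 cytosines tested. M318 AGe sMf averaged 16.3% ± 14.3 and M318 AGe rMf 24.6% ± 4.61 (n = 3 each, difference -8.27, exact permutation p = 0.4). Without sMf replicate A the difference was -0.34. limma called 0 sites, where 0.0427% of all cytosines were called higher, and 9 sites without sMf replicate B. An unadjusted limma p under 0.05 was found at 37 of the 346 sites, and at 121 of all 2342 cytosines tested. Over both genotypes the mean of the within-genotype differences was -1.18 (exact permutation p = 0.88), and 2.79 without M318 AGe sMf replicate A (exact permutation p = 0.36). A difference between the 2 flower types was not detectable with these libraries, which does not show that they are alike.

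Col AGp Sterile carried the AGp label alone, and these sites stayed low in it. Its libraries had 1.27% and 2.07%, against 0.520% and 0.234% in Col Wt, a difference of 1.29 percentage points without overlap (exact permutation p = 0.333, the smallest possible). limma called 0 of 346 sites, where it called 21.1% of all cytosines tested higher and 0.683% lower. An unadjusted limma p under 0.05 was found at 0 of the 346 sites, and at 557 of all 2342 cytosines tested. Leaving out 1 library at a time gave 1 or 2 called sites. The highest windows were 6.17% from 10385002 to 10385101 in replicate 1 and 10% in the same window in replicate 2.

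The other constructs of set A had 1 library each and were not tested. UF2//AGe had the highest CHH level of all 51 libraries, at 37.5%, with 103 sites at 50% or more, a CpG level of 36.3% and 9.51% in the trough. UF4//AGe had 28.8%, with 9.33% in the first window where UF2//AGe had 47.9%. Col AGp//AGe rMf had 30.1%, against 28.6% in the sMf library that set the interval. Col ARE//AGe with Wt flowers had 0.890%, with 16 sites above 0, against 0.520% and 0.234% in Col Wt.

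In sets B and C all 13 construct libraries with sMf or rMf flowers were methylated at these sites, in every mutant. Met1-1 had 23.2% (ARE//AGe sMf), 28.2% (ARE//AGe rMf) and 29.5% (Ctr//AGe rMf), against 2.25% in construct-free Met1-1. The ddm1-1 plants had 27.6% (ARE//AGe sMf), 23.8% (ARE//AGe rMf) and 24.9% (Ctr//AGe rMf), against 2.50% in construct-free ddm1-1, where 189 of 346 sites had a value. Col Ctr//AGe had 26.7% with rMf flowers and 19.45% with Wt flowers, against 1.52% and 2.05% in Col Wt of the set. The Ctr//AGe Wt library had 3.26% in the first window and 43.9% from 10384902 to 10385001. Col AGe rMf of set B had 14.02%, with no site over 49%, where the Col AGe rMf libraries of set A had 33.8% and 30.9%. The suvh1-2 ARE//AGe sMf library had 24.5%, against 10.9% in construct-free suvh1-2. For hdp1-1, ARE//AGe rMf had 34.6% and sMf 28.2%, against 4.58% without the construct. For hdp2-1, ARE//AGe rMf had 29.8% and sMf 33.2%, against 1.34%. With 1 library a group none of these differences was tested.

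The trough had its highest levels in ddm1-1. The 3 ddm1-1 construct libraries had 10.6%, 10.8% and 10.6% in the last 3 windows, above every other construct library, the nearest being UF2//AGe at 9.51% and Met1-1 Ctr//AGe rMf at 8.76%. Outside the trough the same ddm1-1 libraries had 31.7%, 26.9% and 28.4%, within the 24.1% to 40.5% of the 12 AGe libraries of set A other than M318 AGe sMf replicate A. Construct-free ddm1-1 had 0.692% in the trough. Met1-1 construct libraries had 5.46%, 6.58% and 8.76% there, and the Col libraries of set B with rMf flowers 2.81% and 1.42%. In set C the range was 2.42% (hdp2-1 rMf) to 7.19% (hdp1-1 sMf). The 3 ddm1-1 libraries are single libraries of 3 groups, and the set B and set C libraries lie in other columns than set A, so the contrast was not tested.

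**Figure D5:**
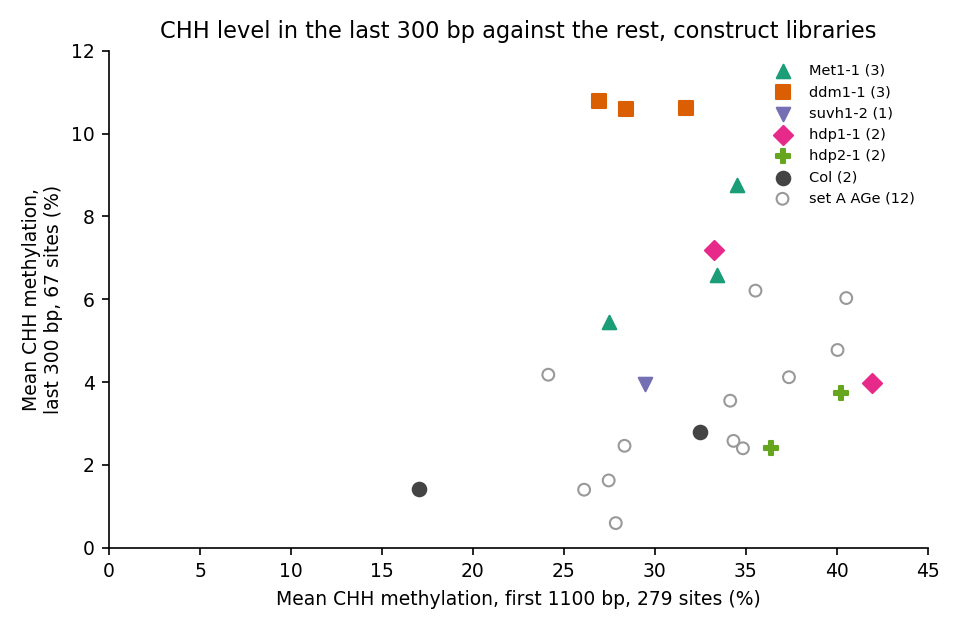
Mean CHH methylation in percent over the last 3 windows (vertical axis, 67 sites) against that over the first 11 windows (horizontal axis, 279 sites), 1 point per library with sMf or rMf flowers of sets B and C by plant, and open circles for 12 AGe libraries of set A. The 3 ddm1-1 points lie at 10.6% to 10.8% on the vertical axis, above all points of the other plants drawn.

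Construct-free Wt libraries showed short runs of sites above 0, in some libraries mostly on 1 strand. Plus- and minus-strand sites above 0 numbered 22 and 3 in M318 Wt replicate A and 11 and 1 in Col Wt replicate A. They numbered 16 and 4 in M317 Wt replicate B, but 16 and 27 in M317 Wt replicate A. The other Wt libraries of set A had 5 or fewer such sites. Among the 8 of set A the highest window started at 10384702 in 3 libraries, at 10384602 in 2, at 10385402 in 2 and at 10385602 in 1. Of the 346 sites 250 were at 0 in all 8 Wt libraries of set A, 75 were above 0 in 1 library and 21 in 2, and none in more than 2. M317 Wt replicate A, the highest, had 43 sites above 0. They began at 10384740 with values of 50% at 10384740, 10384746, 10384775, 10384778 and 10384784, and its window from 10384702 to 10384801 was at 22.5% while its first 4 windows were at 0. M317 Wt replicate B had its highest window from 10385402 to 10385501, at 8.14%. The 5 sites with the highest mean over Wt libraries were 10384784 (9.38%), 10384775 (8.75%), 10384990 (7.5%), 10384740 (6.25%) and 10384746 (6.25%), and each owed most of it to M317 Wt replicate A, at 50% or, at 10384990, 60%. In set C, construct-free suvh1-2 had 224 sites above 0 and was highest from 10384702 to 10385001, at 32.6%, 21.9% and 28.8% in successive windows. Construct-free hdp1-1 had 156 of 338 sites above 0 and was highest from 10384502 to 10384601, at 20.3%. The CHG level of the interval was 25.2% in construct-free suvh1-2 and 10.4% in construct-free hdp1-1, against 0.136% in Col Wt of set C.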

How the data were processed

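Genomic DNA of pooled young flowers was bisulfite treated and sequenced by BGI, per the labels' protocols. Bismark, HISAT2, FastQC 0.11.9 and the build TAIR10 are named in the submitters' processing notes, without roles. The deposited table lists, per the file headers, the context and coordinate of each cytosine and, for 51 libraries, a level in whole percent whose sign the authors used for the strand. For coverage, conversion rate and uncovered cytosines, nothing was found in these sources. The entry rc and blanks were treated as missing, and absolute values were used.

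Rows of column blocks 2 to 5 were brought into register with block 1 by a hidden Markov model of the signs (posterior of at least 0.9, displacement up to 40 rows). The sign then matched in 100% of rows compared, against 54.5% to 65.6% as deposited, and 96.6% to 97.6% of rows were placed. Pearson's r between Col AGe rMf replicates A and B, which the model did not use, was 0.837 after and 0.678 before. On simulated displacements 99.7% to 100% of the kept sites were right.

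Each site had equal weight in a library's mean. Levels were compared over libraries with two-sided exact permutation tests, and site classes within libraries with paired sign-flip permutation tests, in Python 3.11.15 with scipy 1.17.1. For single sites limma 3.58.1 (R 4.3.3) was run on log2((p + 0.01)/(1 - p + 0.01)), with p the level as a fraction, in 1 fit of 23 libraries and 2342 cytosines above 0 in at least 2 of them. Calls are at a Benjamini-Hochberg adjusted p under 0.05. On data simulated for M318 AGe rMf against M318 Wt, it recovered 46%, 88%, 96% and 100% of sites shifted by 2, 4, 6 and 8 log2 units, and called 16 of 2142 unshifted sites. The simulation shuffled residuals over all groups around the mean of each site. It thus lacks Wt groups at 0 without spread, and does not give the error rate of the real calls. Nothing states that replicates were separate plantings, so p-values measure the spread between pooled libraries. The paired tests use the same sites in every library and do not measure the spread between sites.

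The named sites are the 10 highest and 5 lowest over AGe libraries, the 5 highest over Wt libraries, and the 3 widest called differences per contrast without overlap, of which the text shows a part. The interval, these rules and the comparisons were chosen with earlier results of these data known. Comparisons of sites followed by A or by T with those followed by C were planned but need a genome sequence, which was not used here, and sites followed by C were compared with all others instead.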

Additional observations from a re-analysis of the deposited data

Results flagged for a closer look

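Outside the tested comparisons, 8 libraries with Wt flowers exceeded every Col Wt library of the same set in mean CHH level. In set A, Col ARE//AGe Wt was at 0.890%, against 0.520%. In set B, Met1-1 Wt was at 2.25%, ddm1-1 Wt at 2.50% and Col Ctr//AGe Wt at 19.45%, against 2.05%. In set C, Col ARE//AGe Wt was at 2.32%, suvh1-2 Wt at 10.9%, hdp1-1 Wt at 4.58% and hdp2-1 Wt at 1.34%, against 0.690%. Each is a single library with no replicate. Where a site has no value it was left out, which applies to 157 of 346 sites in ddm1-1 Wt.

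With ARE//AGe, the sMf library minus the rMf library gave -5.01 percentage points in Met1-1 and 3.84 in ddm1-1, and -6.35 in hdp1-1 and 3.36 in hdp2-1. The directions are opposite within each pair of mutants. Each value is a difference between 2 single libraries, and whether the mutants differ was not tested.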

How the results depend on the processing

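Of 323 recomputed values, 284 kept both their direction and their side of the threshold or, for counts, stayed within 1.5 times. In the separate level contrasts, whose group sizes cannot give a p under 0.05, the side of the threshold was fixed in advance. AGe against Wt within Col, M317 and M318 stayed positive throughout and passed the threshold except within column block 1 (22.0 percentage points). The libraries of that block are too few to reach the threshold. M318 AGe sMf against M318 Wt turned to -0.379 within column block 1, which holds sMf replicate A alone. The difference of sMf minus rMf over both genotypes, never significant, changed sign with the median over sites (1.08) and within column block 2 (2.96), and ranged between -4.16 and 2.79 when 1 library was left out. The 5 AGe libraries of column block 1 are too few for any paired comparison to reach the threshold. Plus minus minus strand was -3.33 in column block 1 and -1.31 in sets B and C, both short of the threshold. It was 1.54 within windows, 2.96 within windows in sets B and C, and 2.02 without the last 3 windows. First minus second portion of the stretch was -4.46 with medians, -5.82 and -2.98 in column blocks 1 and 2, none of these past the threshold, and 1.15 without the last 3 windows. In column block 1 alone, with 5 libraries, CHH minus CHG (-13.5), CHH minus CpG (15.8) and sites followed by C minus the others (-4.09) could not reach the threshold, and CHH minus CHG was -3.84 with rows as deposited. The M318 AGe sMf count of 117 was 6 with no filter, 242 with a filter of 6 libraries, 66 when the offset was 0.05, 61 for unaligned rows, and 0 when limma was fitted to those groups only (50 at an unadjusted p under 0.05). Leaving out 1 library gave 4 to 292 called sites for M318 AGe sMf, 188 to 232 for Col AGe rMf, 168 to 274 for M317 AGe sMf, 0 to 9 for M318 sMf against rMf and 1 to 2 for AGp Sterile. In deviations from group means, 19 of 64 same-letter pairs of libraries correlated above 0.1 (median r -0.0187). Between AGe libraries labelled A, other than M318 AGe sMf, r was 0.412 to 0.657. Between AGe libraries labelled B or C it ran from -0.351 to 0.524. Replicate letter and column block cannot be told apart here. With the letter as a replicate block, limma called 279 (Col AGe rMf), 273 and 250 (M317 AGe sMf and rMf), 172 and 258 (M318 AGe sMf and rMf) sites and 0 between sMf and rMf in both genotypes. Alternatives within windows, without the last 3 windows, on the next base and on the realignment settings were chosen after seeing the data. Comparisons by A or T after the cytosine were not run. Without coverage, low levels cannot be told from sampling of few reads.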

Other observations

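CpG levels differed more between libraries than CHH levels in ddm1-1. The 3 ddm1-1 construct libraries had CHH levels of 27.6% (ARE//AGe sMf), 23.8% (ARE//AGe rMf) and 24.9% (Ctr//AGe rMf) at these sites, beside CpG levels of 29.4%, 5.67% and 6.56% over the 18 CpG sites of the interval. In hdp1-1 the ARE//AGe rMf library had 34.6% CHH and 8.06% CpG, and the sMf library 28.2% CHH and 24.3% CpG. In Met1-1, whose allele affects the CpG maintenance enzyme, CpG levels of the 3 construct libraries were 5.33% to 11% and CHG levels 53.6% to 57.9%. The 2 Col construct libraries of set B with rMf flowers had 2.94% and 6.5% CpG and 27.9% and 50.8% CHG. In the 12 AGe libraries of set A other than M318 AGe sMf replicate A, CpG was 2.11% to 23.2% and CHG 37.7% to 55.8%. With Ctr//AGe and rMf flowers, CpG was 5.33% in Met1-1 and 6.5% in Col of set B. The Col AGe rMf libraries of set A had 14.7% and 15.4% CpG. The groups of sets B and C named here are single libraries, and the differences were not tested.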
